A study of Mus musculus with 912 samples.

Results

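Activins are secreted dimers of inhibin beta chains and belong to the TGF-beta superfamily. They bind type II receptors, which recruit and phosphorylate type I receptors, and the active complex phosphorylates the receptor Smads that carry the signal to the nucleus, while follistatin traps the ligand outside the cell and the inhibitory Smad7 blocks the type I receptor within it. In the hippocampus Inhba is known as a gene switched on by synaptic activity, and activin has been linked to spine structure, excitability and the survival of neurons. The values below cover 10 genes of this pathway among the 42772 named genes with a count in the deposited tables: the ligand chains Inhba and Inhbb, the type I receptors Acvr1, Acvr1b and Acvr1c, the type II receptors Acvr2a and Acvr2b, the ligand trap Fst, the receptor Smad Smad3 and the inhibitory Smad7. They were taken by name, and the set was chosen by measured values of these data: Inhba was higher and Acvr1c lower in FOS+ dentate gyrus (DG) nuclei. The known contrast was at 1 h after exposure to a new environment, and the 1 h DG values are therefore described without a test. The choice named FOS+ DG nuclei without a time, so the tests on FOS+ nuclei taken later are not independent evidence for Inhba and Acvr1c either.

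The files held 912 single hippocampal nuclei of wild-type female C57BL/6 mice aged 7.75 to 9.0 weeks, each nucleus as its own Smart-seq2 library, and 818 passed filters of 100000 aligned reads and 4000 genes. In the first set of 360 nuclei, mice stayed in the home cage (HC) or spent 15 min in a new environment and were taken after 1 h in the home cage. Nuclei of this set were sorted by antibodies against NEUN, PROX1, CTIP2 and FOS, and each carries a predicted cell type: DG, CA1, CA3, subiculum (Sub), thalamus (Th), or VIP, Pvalb or Ivy interneuron. In the later set of 552 nuclei all mice saw environment A first and all nuclei were sorted as PROX1+, CTIP2+ and ARC+, so the FOS- nuclei of this set are ARC+ as well. They were FOS- at 4 h or 5 h after the single exposure, or FOS+ or FOS- at 1 h after a second exposure, given 4 h after the first, to the same (A>A) or a different (A>C) environment. HC and 1 h nuclei were not sorted on ARC, and 35 FOS- nuclei of these groups with Arc RNA above 2.5 on the log2 scale were left out, which left 783. The replicate is the mouse: DG gave 2 HC mice with at least 2 nuclei (18 and 5, while 2 more mice gave 1 each, which enter shares of nuclei but no level), 1 mouse at 1 h for both FOS groups, 2 at 4 h, 4 at 5 h, 6 for each A>A group (4 mice gave both) and 2 for each A>C group. A mouse here is a replicate number of the labels, and some numbers held nuclei of different ages. Mice 19 and 20 of A>A and mouse 21 of 4 h ran from 7.75 to 8.875 weeks, and mouse 14 of A>C from 8.7 to 9.0. Mice 19 and 20 also spanned more than 1 date code. Such a number may join more than 1 animal.

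Levels are given as log2(TPM+1), averaged over the nuclei of a mouse and then over mice, so that a mean joins the share of nuclei with the transcript and the amount in each. TPM is per transcript length and per library, so genes may be compared on this scale. Counts per nucleus ranged from 142275 to 5885216 with a median of 1251690. The median was 979780 in HC DG nuclei, 2469299 at 4 h, 426841 at 5 h, 1667494.5 in A>A FOS+ and 2133171 in A>A FOS- nuclei, so shares of nuclei with a count were also taken after thinning each nucleus to 100000 counts. No nucleus held the same counts as another. Marker genes were read beside the labels. Prox1, the transcription factor that marks granule cells, had a count in 25 of 25 HC DG nuclei and in 125 of 130 A>A FOS+ nuclei. Arc, the activity-regulated gene used for sorting, averaged 0.33 in HC, 8.80 at 4 h, 5.47 at 5 h, 7.99 in A>A FOS- and 9.21 in A>A FOS+ DG nuclei. Fos RNA was present in 19 of 26 FOS+ and 7 of 27 FOS- DG nuclei at 1 h, but in 43 of 130 FOS+ and 43 of 129 FOS- nuclei after A>A, where sorting was on the protein and the share of nuclei with Fos RNA did not separate the groups.

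Because Inhba and Acvr1c differed in opposite directions between FOS+ and FOS- DG nuclei, the 250 bases before the RefSeq start of each (build GRCm38.p6) are shown here, with the genes' places in the GENCODE vM21 annotation. The Acvr1c window is shown without the 137 bases that lie inside the GENCODE gene. Inhba lies on chromosome 13 from 16011851 to 16031621 on the plus strand. Acvr1c lies on chromosome 2 from 58267453 to 58357895 on the minus strand, next to Acvr1, which runs from 58388644 to 58567157 on that strand. Annotated genes on the opposite strand overlap Inhba, Acvr1, Acvr1c, Acvr2a, Acvr2b and Fst, and Smart-seq2 reads carry no strand, so reads of these could not be told apart.
Inhba, chr13:16011601-16011850, plus strand: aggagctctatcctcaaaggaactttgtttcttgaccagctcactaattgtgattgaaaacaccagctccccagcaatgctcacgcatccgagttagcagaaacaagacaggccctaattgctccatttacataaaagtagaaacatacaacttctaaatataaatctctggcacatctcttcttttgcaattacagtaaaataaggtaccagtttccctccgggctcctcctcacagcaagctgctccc
Acvr1c, chr2:58357896-58358008, minus strand: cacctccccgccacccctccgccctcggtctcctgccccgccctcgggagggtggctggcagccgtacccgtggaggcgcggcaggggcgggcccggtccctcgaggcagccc
GC content was 43.2% in the Inhba window and 79.6% in the whole Acvr1c window, and a second Acvr1c start at chr2:58324808-58325057 had 49.6%. None of these 3 windows held a match to the searched letters on either strand, so nothing is set in capitals. The searched motifs were the cAMP response element TGACGTCA, found in 1.55% of 32851 promoter windows of this length, its core TGACG (17.8%, which includes the full element), AP-1 TGANTCA (6.75%), EGR GCGNGGGCG (4.7%) and the Smad element CAGAC (42.2%). Among the other members with a window, Acvr1b held an EGR match 21 bases before its start and Acvr2a and Acvr2b each held a Smad match, 188 and 233 bases before.

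Inhba, the chain of activin A, was the most abundant of the 10 genes in DG, with a mean of 7.55 over all 26 mouse-by-group values. In HC nuclei it was near the floor, at 0.76 in mouse 6 and 1.07 in mouse 7, and 10 of 25 nuclei had a count (40.0%, 95% exact interval 21.1 to 61.3), falling to 4.0% after thinning. At 1 h the single mouse with DG nuclei stood at 10.75 in FOS+ nuclei, where all 26 had a count, and at 1.72 in FOS- nuclei, where 26 of 27 had a count but only 168 counts were summed against 105921 and 29.6% of nuclei kept a count after thinning. Both FOS- values of the first set were thus low and the FOS+ value was the highest of any group, which is the difference that chose the gene.

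Hours later the level was still high. At 4 h Inhba stood at 8.79 in mouse 17 and 8.63 in mouse 21, and at 5 h at 7.26, 8.47, 6.49 and 7.58 in mice 8, 9, 22 and 23. After A>A the lowest, median and highest mice were 9.01, 9.89 and 10.36 in FOS+ nuclei and 5.55, 6.90 and 7.99 in FOS- nuclei. After A>C the mice were at 10.04 and 10.35 in FOS+ nuclei and at 8.52 and 6.25 in FOS- nuclei. All 6 A>A FOS+ mice were above all 6 FOS- mice, and the A>C FOS+ mice lay within the A>A FOS+ range. From high to low the groups ran 1 h FOS+, A>C FOS+, A>A FOS+, 4 h, 5 h, A>C FOS-, A>A FOS-, 1 h FOS- and HC. The 1 h mouse was above every other mouse, A>C FOS+ did not separate from A>A FOS+, and 5 h did not separate from the FOS- nuclei of A>A or A>C. The 4 h mice lay between the A>A FOS+ and the 5 h mice without overlapping either.

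Acvr1c, the type I receptor also called ALK7, differed the other way between FOS+ and FOS- nuclei, while like Inhba it was at a higher level in the ARC+ FOS- groups than in HC on the mean of mice. HC nuclei stood at 2.64 in mouse 6 and 2.61 in mouse 7, with a count in 14 of 25 nuclei. At 1 h the value was 1.96 in FOS- nuclei and 0.03 in FOS+ nuclei, where 4 counts were summed over 26 nuclei against 6217 over 27. At 4 h it was 5.54 and 5.07, and at 5 h it was 5.55, 3.48, 4.74 and 2.53 in mice 8, 9, 22 and 23. After A>A the lowest, median and highest mice were 1.69, 2.41 and 3.29 in FOS+ nuclei and 3.76, 5.88 and 6.67 in FOS- nuclei, and after A>C they were 1.42 and 1.34 in FOS+ against 6.33 and 4.58 in FOS- nuclei. In each re-exposure the FOS+ mice all lay below the FOS- mice. ARC+ FOS- nuclei of A>A, A>C and 4 h were the highest groups, at 5.60 ± 1.09 (SD, n = 6), 5.46 ± 1.24 (n = 2) and 5.31 ± 0.33 (n = 2), and did not separate from each other. HC (2.62 ± 0.03, n = 2) lay inside the range of the A>A FOS+ mice.

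**Figure D1:**
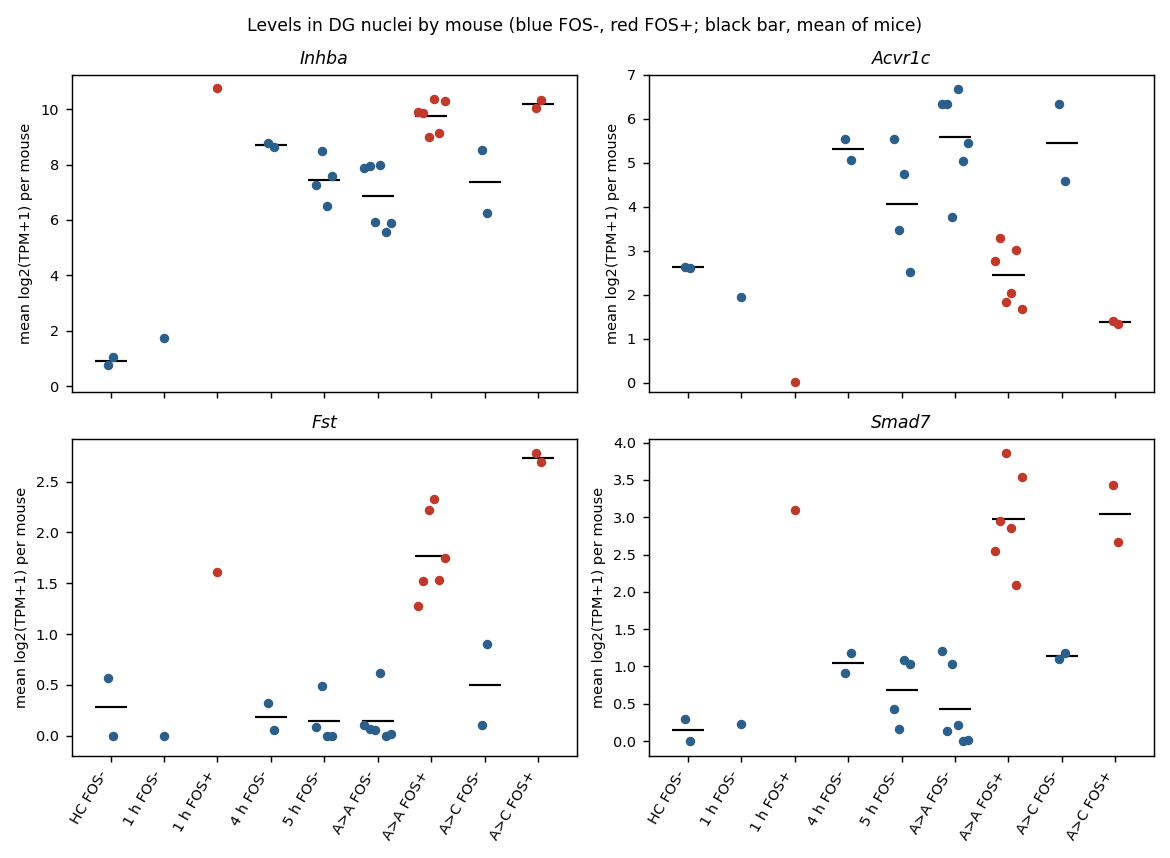
Mean log2(TPM+1) per mouse of Inhba, Acvr1c, Fst and Smad7 (vertical axes) in the 9 DG groups (horizontal axis); each point is 1 mouse, blue for FOS- and red for FOS+, and the bar is the mean of mice. Inhba is high in every group of the later set and highest in FOS+ nuclei, Acvr1c is lower in FOS+ than in FOS- mice after A>A and A>C, and Fst and Smad7 are higher there.

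The comparison of FOS+ with FOS- nuclei after A>A asks how DG neurons that responded to the second exposure differ from ARC+ neurons that did not. The paper describes the FOS+ nuclei as putatively a mix of neurons active in both exposures and neurons newly active in the second. It takes the ARC+ FOS- nuclei as active in the first only. The groups may thus differ in their response to the first exposure too. Acvr1c was lower in FOS+ nuclei, and it was the member that passed the test: its log2 fold change was -2.30 ± 0.40 (SE), adjusted p = 0.0383 in edgeR's quasi-likelihood test on counts summed per mouse. Over all 24405 genes tested 10 passed, or 0.041%, 6 higher and 4 lower, against 1 of the 10 members. In CPM, counts scaled to the library total, Acvr1c was at 106 in FOS+ and 481 in FOS- nuclei on the mean of mice. Inhba was at 1619 and 638 CPM, with a log2 fold change of 1.24 ± 0.43 with adjusted p = 0.261. Of the members Inhba, Acvr1c and Inhbb had an unadjusted p under 0.05, among 3762 of all genes, and the Inhbb value rests on 89 counts in 1 nucleus.

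The Acvr1c call was near the threshold. It was lost when any of mice 15, 16, 19, 20, 25, 26 or 27 was left out (adjusted p 0.0763, 0.0783, 0.0833, 0.0904, 0.191, 0.077 and 0.181) and kept without mouse 24 (0.0465), with the log2 fold change between -2.51 and -2.10. It was also lost with at least 200000 reads and 5000 genes per nucleus (-2.15, adjusted p = 0.259). With the 4 mice that gave both groups entered as a replicate block it was -1.78 ± 0.47, adjusted p = 0.535, and no gene passed (1205 had an unadjusted p under 0.05). These mice carry the same date code for both groups, and in them alone without the block it was -1.91 ± 0.47, adjusted p = 0.476. Mice 15 and 16 gave only FOS+ nuclei and mice 19 and 20 only FOS- nuclei, and their date codes differ. Their median counts per nucleus were 767842.5 and 807527.5 against 2289894.5 and 2694302.5. In these mice date code, depth and FOS group cannot be told apart.

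On the log2(TPM+1) scale, where each nucleus weighs the same, limma called Inhba (higher by 2.90 ± 0.48, adjusted p = 0.000914) and Acvr1c (lower, -3.16 ± 0.51, adjusted p = 0.000695) after A>A, where it called 338 of 11691 genes. Fst differed by 1.63 ± 0.21 and Smad7 by 2.54 ± 0.30 on this scale. Genes entered this test with a mean of at least 1 in any group, which in this pair both reach only in FOS+ nuclei, so their values are given as a description. The FOS+ and FOS- mice of these members did not overlap. Among 8687 genes with a mean of at least 1 in either group 301, or 3.46%, did not overlap, but Fst and Smad7 reach that level only in FOS+ nuclei, so no count of members is read against this share.

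Fst, the secreted trap that keeps activin from its receptors, was sparse, at a higher level in FOS+ than in FOS- mice. A>A FOS+ mice ran from 1.27 over a median of 1.64 to 2.33, and FOS- mice from 0 over 0.06 to 0.61. A count was found in 47 of 130 FOS+ nuclei (36.2%, interval 27.9 to 45.0) and 12 of 129 FOS- nuclei (9.3%, 4.9 to 15.7), or 27.7% and 2.33% after thinning. After A>C the FOS+ mice stood at 2.78 and 2.69 and the FOS- mice at 0.10 and 0.91. The groups did not overlap in either re-exposure. In the edgeR fit the A>A log2 fold change was 3.97 ± 2.03 with adjusted p = 0.363.

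Smad7, which competes with receptor Smads at the type I receptor and marks it for degradation, had a like course. A>A FOS+ mice ran from 2.10 over 2.91 to 3.86 and FOS- mice from 0 over 0.18 to 1.2, and the A>C mice were at 3.43 and 2.67 in FOS+ against 1.10 and 1.18 in FOS- nuclei. It was counted in 82 of 130 A>A FOS+ nuclei (63.1%, 54.2 to 71.4) and 18 of 129 FOS- nuclei (14.0%, 8.48 to 21.2). In the edgeR fit the A>A log2 fold change was 2.39 ± 1.45 with adjusted p = 0.486. In the 1 h mouse, described only, 18 of 26 FOS+ nuclei and 6 of 27 FOS- nuclei had a Smad7 count, and 8 of 26 and 0 of 27 had an Fst count.

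The other receptors and Smad3 overlapped between FOS+ and FOS- mice after A>A. Smad3, a receptor Smad of the activin and TGF-beta branch, ran from 1.18 to 2.48 in FOS+ and from 1.38 to 3.25 in FOS- mice (log2 fold change -0.13 ± 0.49, adjusted p = 0.994). Acvr1, also called ALK2, ran from 1.23 to 3.35 and from 1.68 to 3.68 (-0.73 ± 0.92, 0.85). Acvr1b, the type I receptor ALK4 through which activin A chiefly signals, ran from 0.22 to 1.55 and from 0.27 to 1.17 (-0.11 ± 1.22, adjusted p = 1). Acvr2a, a type II receptor, ran from 0 to 2.34 and from 0.37 to 1.90 (0.17 ± 1.09). The second type II receptor gene, Acvr2b, and the second ligand chain, Inhbb, were close to undetected in DG. Of 129 A>A FOS- nuclei 2 had an Acvr2b count, and Inhbb was counted in at most 1 nucleus of any DG group. Acvr2b and Inhbb were each counted in 0 of 25 HC nuclei. The exact interval for either share of nuclei with a count reaches 13.7% there.

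**Figure D2:**
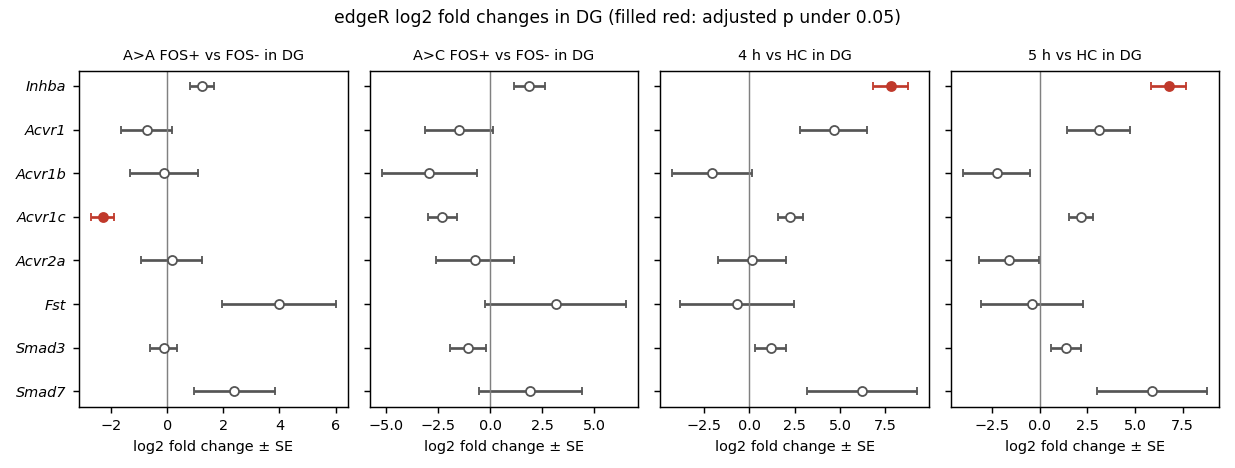
edgeR log2 fold changes with standard errors (horizontal axes) of 8 members (Inhbb and Acvr2b, counted in at most 2 nuclei of any DG group, are left out), for A>A FOS+ against FOS-, A>C FOS+ against FOS-, 4 h against HC and 5 h against HC in DG; filled red points have an adjusted p under 0.05. Acvr1c at -2.30 after A>A and Inhba at 7.78 and 6.78 at 4 h and 5 h are the filled points.

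The 4 A>A mice that gave both FOS groups allow the difference to be read within a mouse. Inhba was higher in FOS+ nuclei by 3.09, 2.37, 3.58 and 4.40 in mice 24, 25, 26 and 27, and Acvr1c was lower, with differences of -1.93, -4.64, -2.03 and -3.75. Fst was higher by 2.16, 1.72, 1.53 and 1.73 and Smad7 by 2.83, 2.64, 2.10 and 3.53. Acvr1b was lower by smaller amounts, with differences of -0.43, -0.67, -0.20 and -0.36.

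Inhba and Acvr1c were read in the same nuclei, and many nuclei of the later set held both. Whether they occurred together more often than the share of each implies was not tested. Counting a nucleus as positive above 1 on the log2 scale, 53 of 68 nuclei at 4 h held both Inhba and Acvr1c, as did 44 of 59 at 5 h and 100 of 129 A>A FOS- nuclei. Among A>A FOS+ nuclei all 130 held Inhba and 60 of them Acvr1c, and among A>C FOS+ nuclei 14 of 48 did. At 1 h none of 26 FOS+ nuclei held Acvr1c above this level, while in HC 13 of 25 held Acvr1c and 7 held Inhba. ARC+ FOS- nuclei were thus mostly positive for both, and the FOS+ nuclei of A>A and A>C were split between both and Inhba alone.

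**Figure D3:**
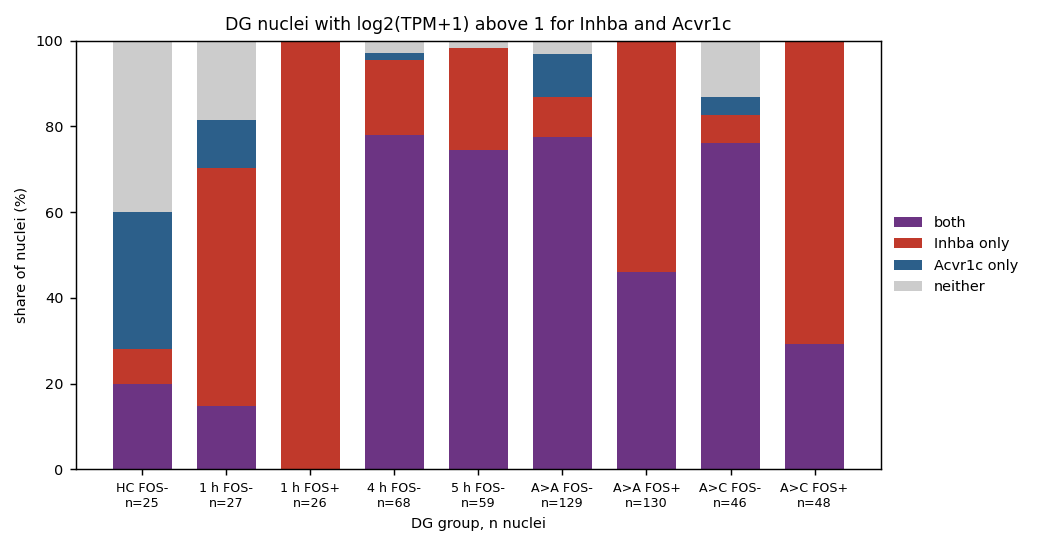
Share of DG nuclei (vertical axis, percent) with log2(TPM+1) above 1 for both Inhba and Acvr1c, for one of them or for neither, in the 9 DG groups (horizontal axis, with the number of nuclei). Both were found in 60 of 130 A>A FOS+ nuclei, 100 of 129 A>A FOS- nuclei and 0 of 26 FOS+ nuclei at 1 h.

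After A>C, the different environment, no member and no gene passed in edgeR (0%), with 2 members and 1089 genes at an unadjusted p under 0.05. With 2 mice against 2 the values ran the same way as after A>A: the log2 fold change was -2.30 ± 0.70 for Acvr1c and 1.89 ± 0.75 for Inhba, both with adjusted p = 0.899, 3.16 ± 3.39 for Fst and 1.94 ± 2.47 for Smad7. DESeq2 called 1107 genes there, Acvr1c among them (adjusted p = 0.0232), and limma 87, with Acvr1c (0.0245). The mice of the FOS+ and FOS- groups were different mice with different date codes, so mouse and FOS group cannot be told apart.

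The 4 h and 5 h comparisons with HC ask which members differ from rest after the first response, in nuclei that were FOS- again. Inhba was far higher at both times. In HC mice 6 and 7 it was at 12.6 and 0.906 CPM, and at 4 h it was at 1270 and 1316 CPM. The log2 fold change was 7.78 ± 0.98 at 4 h (adjusted p = 0.000523) and 6.78 ± 0.92 at 5 h (adjusted p = 0.00129) in edgeR. Inhba was the 1 member of 10 that passed at each time, where 60 of 24405 genes (0.246%) passed at 4 h and 64 (0.262%) at 5 h. The 2 comparisons share their HC mice, whose nuclei also entered the choice of the genes, so these tests do not stand wholly apart from that choice. The set, the ARC sort and the exposure cannot be told apart in either. Since mouse 6 held most of the HC Inhba counts, the fold without it was larger (10.74 at 4 h, 9.75 at 5 h) and without mouse 7 smaller (6.91 and 5.91), and with the Arc-high nuclei kept it was 6.72 and 5.72, with the call kept each time. With at least 200000 reads and 5000 genes per nucleus it was 7.32 at 4 h (adjusted p = 0.011) and 5.93 at 5 h, where the call was lost (adjusted p = 0.0597).

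Acvr1c was above both HC mice in the 4 h mice and in 3 of 4 mice at 5 h, and its edgeR log2 fold changes of 2.26 ± 0.70 and 2.17 ± 0.64 did not pass (adjusted p = 0.412 and 0.231), while DESeq2 called it at 5 h (2.06 ± 0.61, adjusted p = 0.0111), among 1984 of 17878 genes. Acvr1 stood at 3.66 and 4.66 at 4 h against 0.10 and 2.20 in HC (log2 fold change 4.64 ± 1.85, adjusted p = 0.773), and at 5 h its 4 mice were spread from 0.06 to 3.83. Acvr1b was at 0.58 and 0.46 at 4 h and between 0 and 0.80 at 5 h, below both HC mice at 0.84 and 2.77, and limma called it lower at 5 h (adjusted p = 0.0279) where edgeR did not. limma called 1774 genes there, 1610 of them lower, so a lower call is not particular to Acvr1b. Smad7 was at 0.91 and 1.19 at 4 h against 0.30 and 0 in HC (edgeR adjusted p = 0.864). At 5 h Smad7 was at 0.44, 0.16, 1.09 and 1.03 in mice 8, 9, 22 and 23, with adjusted p = 0.497 in edgeR and 0.031 in DESeq2. Over the members 8 of 10 log2 fold changes were above 0 at 4 h, with a median of 2.05 against 0.23 over all genes tested, and 6 of 10 at 5 h, with a median of 1.78 against 0. At 4 h Inhbb (2.83) rests on 5 counts and Acvr2b (1.83) on 2 counts, each in 1 of 68 nuclei. At 5 h Acvr2b (7.08) rests on 17 counts in 1 of 59 nuclei. Inhba and Acvr1c, which chose the set, are above 0 at both times, so nothing is read from these tallies. Without HC mouse 6 the median of all genes moved to 1.26 at 4 h and 0.80 at 5 h, so the median of all genes rests on that mouse. The median of the members was not recomputed without it. Of 8 activity genes listed to check the labels, Arc, Bdnf and Nptx2 passed, with log2 fold changes of 12.51, 2.63 and 5.66 at 4 h and 10.39, 2.09 and 5.79 at 5 h, where the ARC sort and the Arc limit set on HC nuclei fix the direction of Arc. Fos, Fosb, Egr1, Npas4 and Nr4a1 did not pass at either time, and 8 of the 8 log2 fold changes were above 0 at 4 h and 7 at 5 h.

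Markers of other cells were measured beside these results. In HC the 5 granule cell markers summed to a median of 2069 CPM over mice, against 1185 at 4 h and 1184 at 5 h, and to 1276 in A>A FOS+ and 1178 in A>A FOS- nuclei. Oligodendrocyte markers, led by Mbp, summed to 177 (124.6 to 562.4) in A>A FOS+ and 332 (103.6 to 800.9) in A>A FOS- mice, to 321.5 in HC and to 213.9 at 4 h. Astrocyte markers, led by Slc1a3, summed to 71.9 and 87.1 in the A>A groups, 38.5 in HC and 62.4 at 4 h, and microglia markers to 10.8, 17.2, 1.62 and 14.1. All 5 granule markers were counted in every mouse of these groups and 4 or 5 of the 5 oligodendrocyte markers, with Mog at 0 in 3 A>A FOS+ and 4 A>A FOS- mice. Of the 5 microglia markers 1 to 5 were counted, with Tmem119 at 0 in 5 of 6 mice of each A>A group, and Aldh1l1 of the 5 astrocyte markers was at 0 in 3 and 5 of them. CA3 and mossy cell markers, led by Cpne4, summed to 232 in HC, 58.0 at 4 h, 68.6 in A>A FOS+ and 33.7 in A>A FOS- nuclei, with Drd2 at 0 in all of these mice. CA1 pyramidal markers, 4 genes led by Wfs1, summed to 73.8 (54.3 to 140.5) in A>A FOS+ and 39.4 (0.786 to 74.2) in A>A FOS- mice, and to 102 and 164 in the 4 h mice against 18.3 and 39.6 in the HC mice. The 4 h and HC mice did not overlap for these, for granule markers (1099 and 1271 against 1942 and 2195), for CA3 and mossy cell markers (52.8 and 63.1 against 172 and 293) or for microglia markers (4.96 and 23.2 against 0.906 and 2.33). The 5 h mice also did not overlap the HC mice for granule markers (934 to 1637) and microglia markers (3.12 to 8.04), while the other lists overlapped. All 4 CA1 markers had a log2 fold change above 0 after A>A and at 4 h, with medians of 1.05 after A>A and 2.93 at 4 h, and none passed. At 5 h the median sum of the CA1 markers was 0.121. All 5 astrocyte markers were above 0 at 4 h and 5 h (medians 5.92 and 4.04). All 5 microglia markers were above 0 at 4 h (median 6.44), against 2 of 5 at 5 h and 1 of 5 after A>A. All 3 oligodendrocyte precursor markers were above 0 after A>A (median 6.37), and 0 of 5 granule markers were at 4 h or 5 h. None of these passed. VIP interneuron markers, led by Cck, summed to 512 and 395 in the A>A groups, with Vip at 0 in 5 of 6 mice of each. Endothelial markers were at 1.62 in A>A FOS+ and 1.82 in A>A FOS- nuclei, with Cldn5 at 0 in all 6 mice of each, and oligodendrocyte precursor markers at 1.31 and 0.098. The ranges of the A>A groups overlapped for each of these lists. After A>C the FOS+ and FOS- mice did not overlap for granule markers (1046 and 1161 against 1228 and 1294). They did not overlap for oligodendrocyte markers (97.5 and 154.6 against 183.3 and 220.4) or VIP interneuron markers (824.7 and 880.5 against 675.4 and 696.5). The other lists did not separate there. The part of such RNA in the differences was not tested.

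The wider pathway was read from 6 lists of other ligands, receptors, inhibitors, Smads and their regulators and targets. None of their genes passed in any of the 11 comparisons tested with edgeR, and after A>A their log2 fold changes lay on both sides of 0. Of the other superfamily ligands 5 of 12 tested were above 0 (median -0.19), of the other receptors 2 of 8 (-0.05), of the inhibitors 2 of 10 (-1.05), of the other Smads and anchors 3 of 7 (-0.70), of the ubiquitin ligases and corepressors 6 of 10 (0.35) and of the known Smad targets 1 of 5 (-0.58), where the median of all genes was -0.02. The most abundant ligand outside the members was Tgfb2, at 3.36 ± 1.07 in A>A FOS+ and 1.29 ± 0.61 in FOS- mice (SD, n = 6 each), with an edgeR log2 fold change of 1.37 ± 0.61 and adjusted p = 0.291. Tgfbr1, the type I TGF-beta receptor, was at 5.58 ± 0.16 and 5.49 ± 0.46, above each type I activin receptor in FOS+ nuclei. Fstl1, a secreted follistatin-like protein, stood at 4.39 ± 0.60 and 4.61 ± 0.79 (-1.02 ± 0.45, adjusted p = 0.289), and Nedd4l, a ubiquitin ligase that acts on activated Smads, at 2.90 ± 0.87 and 2.98 ± 0.67. Zfyve9, the anchor that presents receptor Smads to the receptor, was low at 0.65 ± 0.37 and 1.03 ± 0.56. Junb, listed as a Smad target and also an immediate early gene, stood at 4.77 ± 1.24 and 3.13 ± 1.37 (adjusted p = 0.815).

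Genes whose pattern over the 26 DG values was most like that of Inhba were Pcdh8 (Pearson r = 0.921), Lingo1 (0.907), Bdnf (0.906), Arc (0.905) and Spry2 (0.905), among 8124 genes with a mean of at least 1. Those most like Acvr1c were Shisa4 (0.864), Galnt14 (0.848), Ptprz1 (0.84), Zfand2b (0.837) and Rasl10a (0.827). The values share mice, sets and sort gates, so these r are descriptions.

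Outside DG the members were compared at 1 h, in mice that gave nuclei of several predicted types. In CA1, pyramidal neurons, Inhba was at 1.34, 2.49 and 5.67 in the FOS+ nuclei of 3 mice and between 0 and 3.28 in FOS- nuclei, and 4 of 33 FOS+ nuclei held both Inhba and Acvr1c above 1. The groups overlapped, and the edgeR log2 fold change was 2.35 ± 1.97 with adjusted p = 1. CA1 pyramidal markers summed to only 5.175 CPM in a single FOS+ mouse, against 196.3 and 830.8 in the others. Within the 3 mice, which gave both groups, Inhba was higher in FOS+ nuclei by 2.39, 0.44 and 2.49, and the edgeR fit that blocks on the mouse gave a log2 fold change of 4.74 ± 2.5, adjusted p = 1. Acvr1c in CA1 was at 1.45 ± 1.03 in FOS+ and 0.45 ± 0.63 in FOS- mice (SD, n = 3 each), with an edgeR log2 fold change of 1.24 ± 2.54 and adjusted p = 1, or 4.12 ± 2.12 and adjusted p = 1 with that block. Acvr1b was the member whose CA1 mice did not overlap, lower in FOS+ (0.61 to 1.84) than in FOS- mice (2.00 to 3.36), where 12.1% of 11738 genes did not overlap. No member of 7 tested passed in CA1 and no gene did (0%), with 0 members and 629 genes at an unadjusted p under 0.05, 229 genes called by DESeq2 and 0 by limma. The activity genes did not pass either, though 7 of 7 tested were above 0, with a median log2 fold change of 5.34. The Arc limit set on FOS- nuclei favours this direction for Arc. This fit therefore cannot show that a member did not differ.

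VIP interneurons, GABAergic cells that mostly contact other interneurons, held little of the pathway's ligand. Inhba was too sparse to enter the test by FOS here and in subiculum. In VIP nuclei Inhba was counted in 1 of 27 FOS+ and 1 of 17 FOS- nuclei. Fst and Smad3 were counted in none of either. The exact intervals for their shares of nuclei with a count reach 12.8% in FOS+ and 19.5% in FOS- nuclei. Acvr1c was at 0.18 ± 0.17 in FOS+ (n = 2) and 0.42 ± 0.66 in FOS- mice (n = 3), while Acvr1b stood at 1.70 ± 0.45 and 1.07 ± 1.04 and Acvr2a at 1.52 ± 0.55 and 1.45 ± 0.98. Of these FOS- mice 1 stood apart, with VIP interneuron markers summing to 1119 CPM against 11850 and 13330 in the others. No member of 5 and no gene (0%) passed by FOS, with 0 members and 850 genes at an unadjusted p under 0.05, 438 called by DESeq2 and 0 by limma. In subiculum Inhba was at 0.35, 0.39 and 1.47 in FOS+ mice and at 0 in all 3 FOS- mice, without a test, and Acvr2a, at 3.53 ± 2.05 and 3.35 ± 1.24, and Acvr1b, at 2.96 ± 1.34 and 3.82 ± 1.24, were the most abundant members. No member of 6 and no gene (0%) passed there, with 0 members and 944 genes at an unadjusted p under 0.05, 410 called by DESeq2 and 0 by limma. Activity genes did not pass in VIP nuclei or subiculum either. Of those tested 4 of 5 were above 0 in VIP nuclei (median 2.14) and 7 of 7 in subiculum (median 1.67). In CA3, given by mouse only, Inhba was at 1.28 and 3.14 in FOS+ nuclei and at 0 and 1.40 in FOS- nuclei, and it was at 0 in the FOS+ Pvalb mice.

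**Figure D4:**
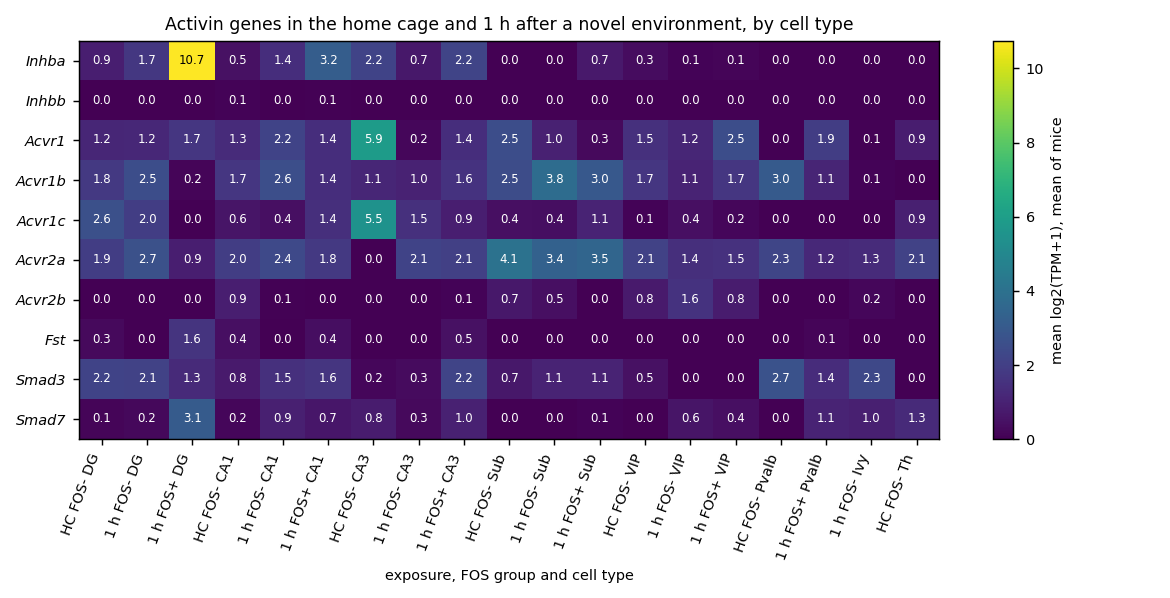
Mean log2(TPM+1) over mice (colour and printed value) of the 10 genes (rows) in each predicted cell type of the first set by exposure and FOS group (columns); groups without a mouse of at least 2 nuclei are left out. The value of 10.7 for Inhba in 1 h FOS+ DG nuclei, from 1 mouse, is the highest of the plot, and for Inhba CA1 FOS+ nuclei follow at 3.2.

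In HC no member passed between cell types in edgeR. Inhba was at 0.91 ± 0.22 in DG (n = 2) and 0.49 ± 0.53 in CA1 (n = 3), with an edgeR log2 fold change of 2.72 ± 2.29 and adjusted p = 0.855. Oligodendrocyte markers summed to 11190 CPM in a single HC CA1 mouse, against 141.2 and 163.8 in the others. Acvr1c was at 2.62 ± 0.03 in DG, 0.61 ± 0.98 in CA1 and 0.10 ± 0.14 in VIP (n = 2), with edgeR log2 fold changes of 1.22 ± 2.52 against CA1 (adjusted p = 0.995) and 7.13 ± 3.67 against VIP (adjusted p = 0.701). For Acvr1c the DG mice lay above the CA1 and VIP mice, while the single HC CA3 mouse with at least 2 nuclei was higher still at 5.48, and Acvr2b was at 0 in both DG mice against 0.50 to 1.59 in CA1 mice. DESeq2 called Fst for DG against VIP, among 778 of 15600 genes, where edgeR gave 8.24 ± 5.02 with adjusted p = 0.708. None of 9 members passed in either in edgeR, where 4 of 18254 genes (0.0219%) and 5 (0.0274%) did. Vip itself, which defines the interneurons, was among the latter.

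Whether the A>A difference in DG exceeded the 1 h difference in CA1 or VIP was tested as an interaction, in which exposure, set and sort differ along with the cell type. None of the 10 members passed, where 3 of 21284 genes (0.0141%) did against CA1 and 30 (0.141%) against VIP. The median of all genes was itself at -0.17 and -0.26 in these fits. For Acvr1c the DG difference was lower than that in CA1 by a log2 fold change of -3.58 ± 2.17 (edgeR adjusted p = 0.711), while limma gave -4.16 ± 0.83 on the log2(TPM+1) scale (adjusted p = 0.0426). For Inhba it was -1.25 ± 1.46 in edgeR (adjusted p = 0.969) and 1.12 ± 1.13 in limma (adjusted p = 0.763), so that not even its sign was settled. No member is therefore called particular to DG by the edgeR test.

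**Figure D5:**
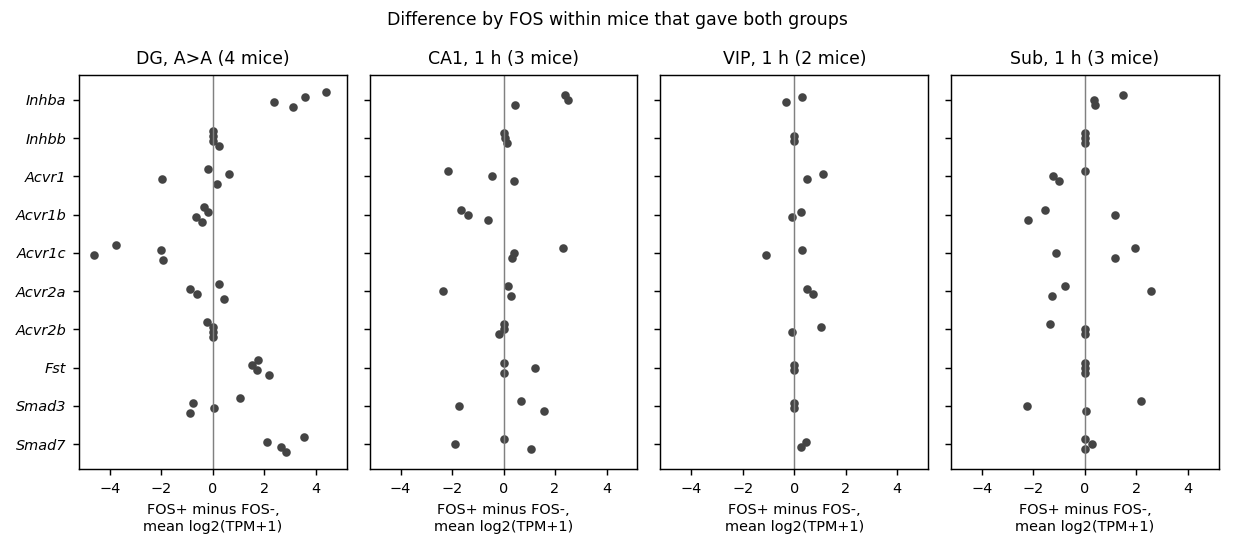
Difference FOS+ minus FOS- in mean log2(TPM+1) (horizontal axes) within mice that gave both groups, for each gene (rows), in DG after A>A (4 mice) and in CA1 (3), VIP (2) and Sub (3) at 1 h; each point is 1 mouse. Acvr1c lies between -4.64 and -1.93 in DG and between 0.31 and 2.30 in CA1.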

How the data were processed

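Nuclei were sequenced by Smart-seq2, and per the labels the authors used Bowtie and RSEM with mm10 (versions not given in the sources used here). The authors deposited RSEM expected counts and log2(TPM+1) values per nucleus. Expected counts were rounded and summed over at least 2 nuclei per mouse and group. edgeR 4.0.16 (R 4.3.3; TMM, filterByExpr, quasi-likelihood F test, two-sided) gave log2 fold changes, with Benjamini-Hochberg adjustment over all genes of a fit and a threshold of 0.05. The SE printed with an edgeR value was computed from its F, as the absolute log2 fold change divided by the square root of F. Such an SE is not reliable where a group has almost no counts, and it reached 22350 for Inhbb in the VIP interaction. The 24405 genes of the DG fit came from 26 sums. DESeq2 1.42.0 on these sums and limma 3.58.1 on mean log2(TPM+1) per mouse were alternatives. Fits were tested on simulated data, with a limit on the error set only for edgeR and only at a spread far below that of these data. The common dispersion, edgeR's measure of spread between sums, was 1.74 to 2.195 over the fits. limma was simulated only at the low spread. Recovery at the higher spread is not reported here. 1 of the genes called after A>A is not reported here.

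The members and gene lists were chosen with earlier results of these data known. Named genes are the members, other listed genes past the threshold, the most abundant gene of each pathway list and 4 label checks. The 5 genes most like Inhba or Acvr1c are named too. So are the leading genes of some marker lists, markers at 0, the other activity genes and further genes called after A>A. Ranges and upper limits of nuclei shares are from 95% Clopper-Pearson (exact) intervals and cover counting error only. Mouse numbers come from the labels, and the same number in both FOS groups of an exposure was taken as the same mouse. The 4 A>A pairs deviated together weakly, with a mean correlation of 0.0439 against -0.00548 for other pairs. Differences within mice and levels were computed with Python 3.11.15.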

Additional observations from a re-analysis of the deposited data

Results flagged for a closer look

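For Acvr1c the within-mouse differences had opposite signs in CA1 and DG: its FOS+ minus FOS- difference was above 0 in all 3 CA1 mice at 1 h (1.0 ± 1.12, SD, with mouse 10 at 2.30 and the others at 0.31 and 0.39) and below 0 in all 4 DG mice after A>A (-3.09 ± 1.33), a gap of 4.09 on the log2(TPM+1) scale. The gap of these within-mouse values was not tested as such. The CA1 difference itself did not pass (edgeR log2 fold change 1.24 ± 2.54, adjusted p = 1). As an interaction over mouse sums edgeR gave an adjusted p of 0.711 and limma 0.0426, and exposure, set and sort differ along with the cell type.

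A single mouse stood apart from its group in 6 of 30 combinations of a gene and a group, which are the 10 members in the 3 DG groups of at least 4 mice and so reuse the same mice. Chance flags about 1 in 20 groups of spread-out values, a rate that does not hold where the rest of the group was at or near 0, as in 5 of the 6. Inhbb was at 0.234 in A>A FOS+ mouse 24. Acvr2b was at 0.267 in 5 h mouse 9, at 0.062 in A>A FOS+ mouse 16 and at 0.236 in A>A FOS- mouse 27. Fst was at 0.612 in A>A FOS- mouse 25. Smad3 was at 4.04 in 5 h mouse 23, against 2.33 in the next mouse.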

How the results depend on the processing

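Of the members, Arc, Bdnf, Nptx2 and Vip, the genes recomputed under each alternative, none that passed in edgeR under the settings of the report changed sign. Values that did not pass there did, such as Arc in the VIP interaction (-11.04 to 6.13) and Fst in the CA1 interaction (-17.37 to 4.00), where DESeq2 called Fst. Of the values of named genes under these alternatives 1880 were counted as the same. A call was lost in 29 and gained in 19, and 31 shares of nuclei moved with thinning. The same ones kept their side of the threshold or, for shares of nuclei, stayed within their interval. A value that passed in neither setting was counted so, whatever its sign or size. Acvr1 for DG against CA1 in HC is such a case, at -7.85 to 2.51. Counts of genes called moved with the tool. DESeq2 called 880 genes after A>A, 1107 after A>C, 995 at 4 h, 1984 at 5 h, 229 in CA1, 438 in VIP, 410 in Sub, 646 for DG against CA1, 778 for DG against VIP, and 951 and 1449 for the interactions with CA1 and VIP. limma called 338, 87, 718 and 1774 in the DG comparisons, 7 and 47 between cell types in HC, and 20 and 11 for the interactions. Higher calls made up 100% at 4 h and 89.1% at 5 h in edgeR, 81% and 66.9% in DESeq2 and 22% and 9.24% in limma, and 60% and 42.7% after A>A in edgeR and DESeq2. DESeq2 size factors in edgeR gave 38 calls at 4 h and moved the median of all genes from 0.228 to 0 there and from -0.173 and -0.263 to -0.105 and -0.076 in the interactions. Without the low-count filter the interactions gave 1 and 16. Sums of at least 5 nuclei gave 1 and 2 between cell types and 46 for the VIP interaction. With 200000 reads and 5000 genes the counts were 3 after A>A, 18 at 4 h, 13 at 5 h, 1 and 2 between cell types and 0 and 7 for the interactions. Sums kept apart by date code gave 18 after A>A, 36 at 5 h and 1 and 18 for the interactions. With the Arc-high nuclei kept, 41 genes passed at 5 h and 0 in the CA1 interaction. The causes were not tested. Leaving out 1 mouse gave 1 to 8 calls after A>A, 0 to 1 after A>C, 17 to 180 at 4 h, 20 to 204 at 5 h, 0 to 0 in CA1, VIP and Sub, 1 to 2 and 1 to 1 for DG against CA1 and VIP, and 0 to 4 and 11 to 161 for the interactions. The count was lowest without HC mouse 7 and highest without HC mouse 6 at 4 h and 5 h, it was 34 and 30 without mice 17 and 21 of the 4 h group, and the 161 came without mouse 4 of the 1 h group. Bdnf and Nptx2 lost their calls at 4 h or 5 h without HC mouse 6 or 7, and Vip lost its call without any of HC mice 4, 5, 6 or 7.

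With the mouse as a replicate block 0 genes passed after A>A, and Acvr1c was at -1.78 (adjusted p = 0.535) and Inhba at 1.86 (adjusted p = 0.37). Mice 24 to 27 alone gave 0 calls, and leaving out mice 26 and 27 gave 1. Over all alternatives the adjusted p of Acvr1c after A>A ran from 2.2e-06 to 0.535. Only 2 HC mice, 1 DG mouse at 1 h and 2 mice per A>C group limit every comparison that rests on them, and the shallow 5 h nuclei limit what low genes such as Inhbb, Acvr2b and Fst can show.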

Other observations

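Further genes that edgeR called after A>A are named here after their values were seen, with adjusted p from 0.000415 to 0.0487. Kdm6b, a histone demethylase of the H3K27 methyl mark, was higher in FOS+ nuclei by a log2 fold change of 3.47, Dclk1, a microtubule-associated kinase, by 1.79, Baiap2, an adaptor at the actin cytoskeleton of spines, by 1.73 and Kcna1, a voltage-gated potassium channel, by 1.52. Osbpl6 and Sgip1 were higher by 1.71 and 1.81. Cstf3, a factor of RNA 3' end cleavage, was lower (-1.85), as was Ogt, the enzyme that adds O-GlcNAc to proteins (-1.10).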
